A study of Homo sapiens with 6 samples.

Results

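The 8 genes described here are the ligands VEGFA, VEGFB, VEGFC and PGF of the vascular endothelial growth factor (VEGF) family, the VEGF receptors KDR, FLT1 and FLT4, and TEK, the receptor of the angiopoietins. They were chosen by name for their known roles, with earlier results of these data known, and all 8 were found among the 23284 genes of the deposited table. RNA was sequenced from WA01 cells, an established line of human embryonic stem cells (also called H1) with a wildtype genotype, before and during the induction of neural crest. The 6 libraries are 2 of each stage: the starting stem cells (ES, day 0), a pre-neural crest stage (preNC, day 3) and the neural crest stage (NC, day 5). The labels describe 1 culture recipe for every library, day 0 included. It lists Matrigel, a density of 20000 cells per cm2, the supplement B27 at 2% and bovine serum albumin (BSA) at 0.5%. Also listed are 3 µM CHIR99021, which turns on WNT signalling by blocking GSK3, and at the start 10 µM Y-27632, which blocks ROCK. All groups come from this line, so nothing here speaks of other lines.

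VEGF ligands are secreted proteins that drive the growth of blood and lymph vessels. VEGFA binds KDR, which carries most of its signal in endothelial cells, and FLT1, which binds it more tightly, signals weakly and is also made as a soluble decoy. VEGFB and PGF bind FLT1, and VEGFC, the main lymphatic ligand, binds FLT4 and, once processed, KDR. TEK (also called TIE2) keeps vessels stable. The neuropilins NRP1 and NRP2 are co-receptors that bind both VEGF ligands and class 3 semaphorins, and in chick embryos VEGFA attracts migrating cranial neural crest cells.

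The table gives 1 FPKM value per gene and group, in which the authors combined the libraries. FPKM corrects fragment numbers for the length of the transcript and the size of the library, so levels of different genes can be set side by side. There is no value per library, so the spread between replicates cannot be given, and the number of fragments behind each value is unknown. Each difference is a log2 ratio of group FPKM, later day over earlier day. After ± stands a standard error, namely that log2 ratio divided by its deposited test statistic. Genes count as called, in either direction, if the authors' deposited table gives them a q under 0.05. The deposited p of some genes is smaller than a normal distribution of that statistic would give, so calls of the 8 genes that end under a normal p are named, and for other genes the adjusted normal p is given where it ends a call. Labels were checked against markers. Medians given with lists below are of the log2 ratio of FPKM plus 1, and over all tested genes these were 0.03 by day 3, -0.04 between day 3 and day 5 and -0.01 over the whole course. Of 6 pluripotency markers, all tested, 5 fell and 0 rose by day 3 (median log2 ratio of FPKM plus 1, -3.42), 2 fell and 0 rose between day 3 and day 5 (-0.46), and 5 were lower on day 5 than on day 0 (-4.89). Of 8 neural crest markers 5 rose and 1 fell among 7 tested by day 3 (0.93), and 7 of 8 were higher on day 5 than on day 3 (2.42) and than on day 0 (2.48), with 0 lower.

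The VEGF receptors KDR and FLT1 were high in undifferentiated cells and low from day 3 on. FLT1 (chromosome 13, 28874483 to 29069265 in hg19) stood at 25.6 FPKM on day 0, 0.685 FPKM on day 3 and 0.178 FPKM on day 5. Among the 8 genes it was the highest on day 0 and the lowest on day 5. It fell 37.3-fold by day 3 (log2 -5.22 ± 0.63, q 0.000596 in the authors' deposited table). FLT1 fell again from there to day 5 (log2 -1.95 ± 0.88, q 0.00747 in the authors' deposited table), a call that ends under a normal p (adjusted p 0.144, both values below 1 FPKM). Day 5 was 144-fold below day 0 (log2 -7.17 ± 0.71, q 0.000596 in the authors' deposited table). The size of these falls depends on the low later values, since with a pseudocount of 1 FPKM the log2 ratio was -3.98 by day 3, -0.52 for day 5 against day 3 and -4.50 for day 5 against day 0. Ordered from the largest fall on the ratio of FPKM plus 1, FLT1 had rank 47 of 16231 tested genes by day 3 and rank 63 of 16409 over the whole course. Reads of the soluble and membrane forms of FLT1 cannot be told apart in a value per gene, and GENCODE lists a pseudogene, FLT1P1, that may share reads with it.

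KDR (chromosome 4, 55944426 to 55991762) was at 22.2 FPKM on day 0, 3.14 FPKM on day 3 and 2.65 FPKM on day 5. The fall by day 3 was 7.07-fold (log2 -2.82 ± 0.48, q 0.000596 in the authors' deposited table). Day 5 was 8.38-fold below day 0 (log2 -3.07 ± 0.44, with the same q). Nearly the whole change lay before day 3, since day 5 against day 3 gave a log2 ratio of -0.24 with an implied 95% interval of -1.24 to 0.76 (q 0.72 in the authors' deposited table). By level KDR stood above 83.0% of all genes on day 0 and above 53.4% on day 3. The ratio of the KDR level to the FLT1 level was 0.869 on day 0, 4.59 on day 3 and 14.9 on day 5.

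FLT4, the receptor of VEGFC (chromosome 5, 180028506 to 180076624), did not follow KDR and FLT1 past the threshold. Its level was 2.32 FPKM on day 0, 3.66 FPKM on day 3 and 2.09 FPKM on day 5. The log2 ratio was 0.65 ± 0.50 for day 3 against day 0 (q 0.191 in the authors' deposited table) and -0.81 ± 0.41 for day 5 against day 3 (q 0.0784 in the authors' deposited table). Day 5 against day 0 gave -0.15 with an implied interval of -1.18 to 0.88, and 0.02 after rescaling without small RNA genes, so that sign is not fixed. FLT4 held 4.64% of the summed FPKM of the 3 VEGF receptors on day 0, 48.9% on day 3 and 42.5% on day 5.

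TEK (chromosome 9, 27109147 to 27230172) moved the other way. Its level was 12.2 FPKM on day 0, 21.5 FPKM on day 3 and 15.3 FPKM on day 5. It was the highest of the 8 genes on day 3. The rise by day 3 was 1.77-fold (log2 0.82 ± 0.41, q 0.0227 in the authors' deposited table), and the call ends under a normal p (adjusted p 0.207). Neither day 5 against day 3 (log2 -0.49 ± 0.40, q 0.23) nor day 5 against day 0 (log2 0.33 ± 0.39, q 0.455) was called in the authors' deposited table.

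**Figure D1:**
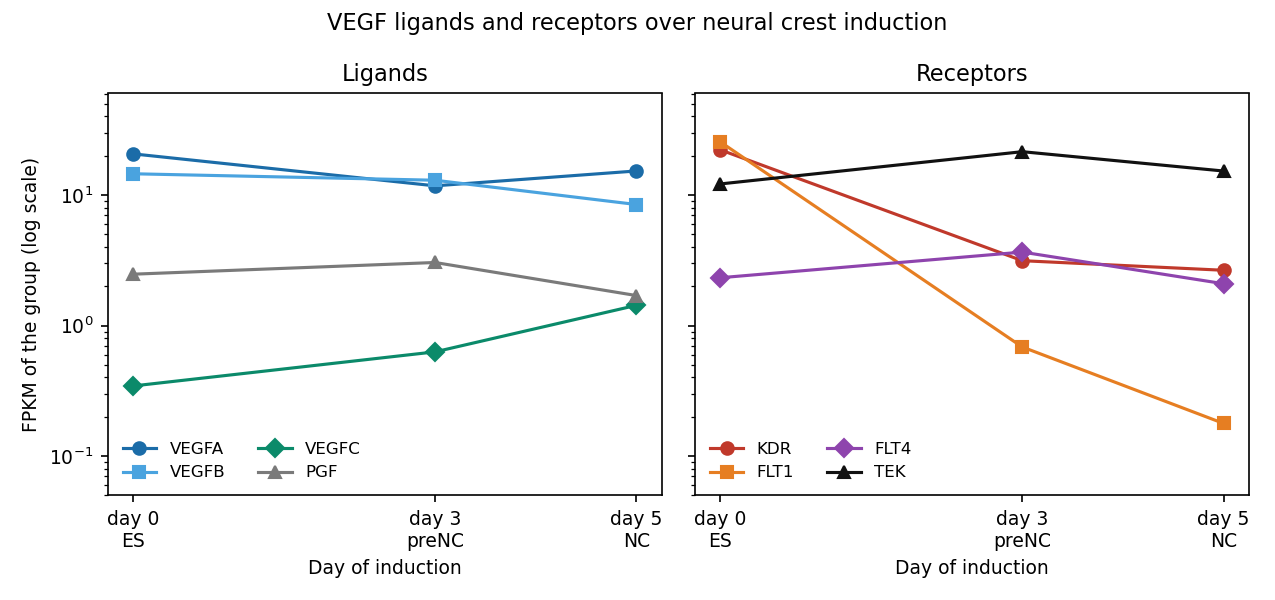
FPKM of each gene (log axis) against day of induction, with ligands on the left and receptors on the right; each point is the authors' value for a group, without replicate spread. FLT1 goes down to 0.178 FPKM on day 5 and KDR to 2.65 FPKM, while TEK stays between 12.2 and 21.5 FPKM.

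KDR and FLT1 fell together and TEK did not, so their upstream sequences are shown side by side. Each is the 250 bases before the transcription start in the RefSeq promoter table (build GRCh38.p14, not the hg19 build of the expression table), written 5′ to 3′ on the strand of the gene. That table held 6 of the 8 genes, VEGFA and FLT4 not among them. The windows are chr4:55125596-55125845 (minus strand) for KDR, chr13:28495129-28495378 (minus strand) for FLT1 and chr9:27108975-27109224 (plus strand) for TEK, at the more upstream of its starts. Capitals mark matches, on either strand, to the GC box GGGCGG, the ETS core GGAAG, the cyclic AMP response element TGACGTCA, the octamer ATGCAAAT, the TATA box TATAAA and the hypoxia core ACGTG.
KDR: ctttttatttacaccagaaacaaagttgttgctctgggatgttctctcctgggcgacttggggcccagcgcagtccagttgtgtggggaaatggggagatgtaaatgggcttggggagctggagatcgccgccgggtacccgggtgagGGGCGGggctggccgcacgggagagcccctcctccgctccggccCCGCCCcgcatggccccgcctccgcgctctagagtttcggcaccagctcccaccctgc
FLT1: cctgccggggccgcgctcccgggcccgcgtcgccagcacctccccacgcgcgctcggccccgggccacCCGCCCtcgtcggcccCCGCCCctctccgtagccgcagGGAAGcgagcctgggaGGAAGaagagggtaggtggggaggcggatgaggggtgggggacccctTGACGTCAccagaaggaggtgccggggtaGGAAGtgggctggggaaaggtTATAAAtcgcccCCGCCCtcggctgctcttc
TEK: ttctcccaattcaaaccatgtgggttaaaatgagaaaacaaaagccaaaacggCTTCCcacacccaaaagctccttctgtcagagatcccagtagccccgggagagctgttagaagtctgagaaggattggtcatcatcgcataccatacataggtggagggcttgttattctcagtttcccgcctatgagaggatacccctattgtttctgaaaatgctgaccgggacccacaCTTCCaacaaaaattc
The KDR window holds 2 GC boxes and no other match. The FLT1 window holds 3 GC boxes, 3 ETS cores, 1 TGACGTCA element 74 to 81 bases before the start and 1 TATA box 26 to 31 bases before it. The TEK window holds 2 ETS cores and no GC box. Of all 35116 windows of this length, 42.6% hold GGGCGG, 65.1% GGAAG, 1.65% TGACGTCA, 1.63% ATGCAAAT, 10.7% TATAAA and 18.5% ACGTG. The 6 motifs do not overlap each other in these 3 windows. The share of G and C was 65.2% for KDR, 73.2% for FLT1 and 46.4% for TEK, beside a median of 58.0% over all windows. The windows of the remaining members held 6 GC boxes for VEGFB, 2 for VEGFC, and 3 or 2 for PGF, depending on its start. Their share of G and C was 82.8% for VEGFB and at least 70.8% for VEGFC and PGF. VEGFB and PGF were not called in any comparison, and VEGFC was called higher on day 5 than on day 0. A link between these matches or shares and the changes in level was not tested. No binding was measured, and a match is only a run of letters.

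Among the ligands, VEGFA and VEGFB carried most of the RNA throughout, and VEGFC was the ligand called higher on day 5 than on day 0. VEGFA (chromosome 6, 43737946 to 43754223) was at 20.7 FPKM on day 0, 11.8 FPKM on day 3 and 15.3 FPKM on day 5. It fell 1.76-fold by day 3 (log2 -0.81 ± 0.39, q 0.0199 in the authors' deposited table), and this call too ends under a normal p (adjusted p 0.181). Day 5 against day 3 gave 0.38 ± 0.41 (q 0.405) and day 5 against day 0 gave -0.44 ± 0.38 (q 0.292), neither of them called in the authors' deposited table. VEGFA is spliced into forms that differ in binding to the matrix, and a value per gene does not separate them.

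VEGFC (chromosome 4, 177604691 to 177713895) was at 0.344 FPKM on day 0, 0.629 FPKM on day 3 and 1.43 FPKM on day 5. Day 5 was 4.15-fold above day 0 (log2 2.05 ± 0.62, q 0.00283 in the authors' deposited table), and with a pseudocount of 1 FPKM that log2 ratio was 0.85. The single steps were not called, with 0.87 ± 0.65 for day 3 against day 0 (q 0.283) and 1.18 ± 0.59 for day 5 against day 3 (q 0.0688) in the authors' deposited table. Even on day 5 its level lay below those of VEGFA, VEGFB and PGF.

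VEGFB (chromosome 11, 64002056 to 64006736) was at 14.6 FPKM on day 0, 13.0 FPKM on day 3 and 8.46 FPKM on day 5, and was not called. Its log2 ratio was -0.16 ± 0.44 for day 3 against day 0 (q 0.807), -0.62 ± 0.42 for day 5 against day 3 (q 0.188) and -0.78 ± 0.47 for day 5 against day 0 (q 0.0717 at an unadjusted p of 0.016) in the authors' deposited table. It lies less than 1 kb from DNAJC4, which was at 17.2 FPKM on day 0, 12.7 FPKM on day 3 and 12.2 FPKM on day 5, and whether reads were assigned by strand is not given in the sources used here. No other member overlaps a listed gene or lies that near one.

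PGF (chromosome 14, 75408533 to 75422467), placental growth factor, was at 2.47 FPKM on day 0, 3.04 FPKM on day 3 and 1.70 FPKM on day 5. None of its comparisons was called, with an implied interval of -0.88 to 1.48 for day 3 against day 0, -1.90 to 0.21 for day 5 against day 3 and -1.84 to 0.75 for day 5 against day 0. The width of these intervals limits what can be said of PGF.

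**Figure D2:**
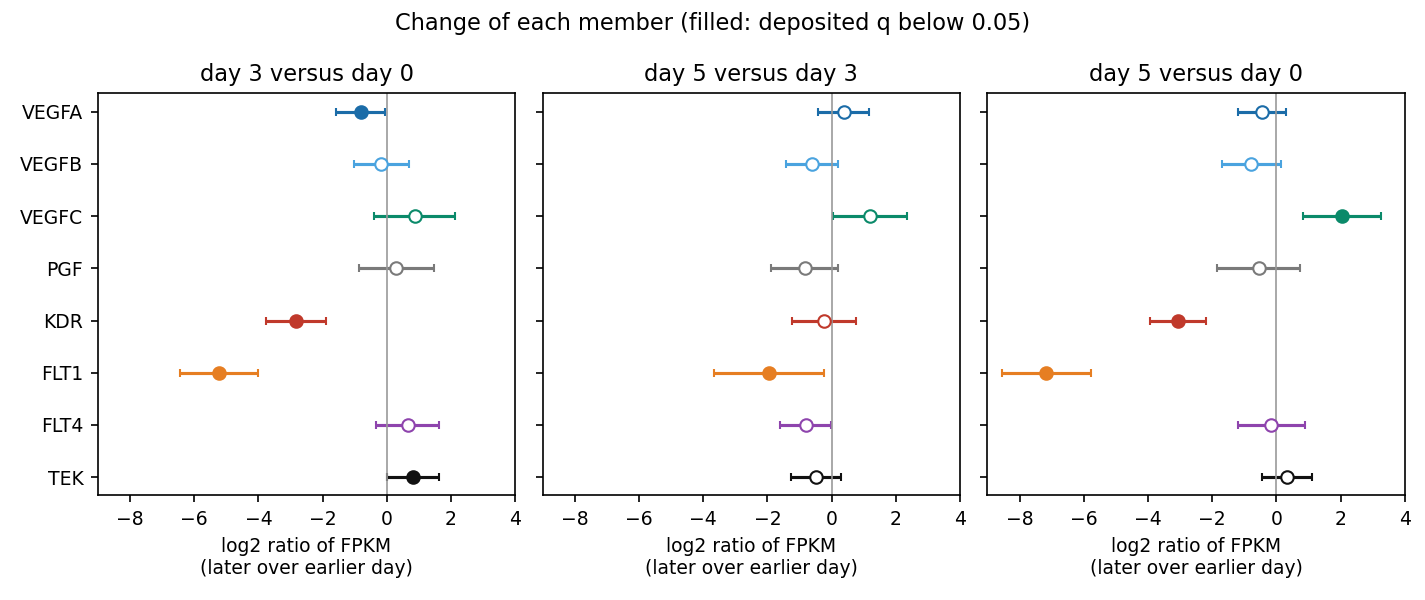
Log2 ratio of FPKM, later over earlier day, for each gene in the 3 comparisons; bars are the 95% intervals implied by the deposited test statistic and filled points have a deposited q below 0.05. FLT1 and KDR stand far left of 0 against day 0, and VEGFC stands right of 0 on day 5 against day 0.

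Counted together, 1 of the 8 genes rose (TEK) and 3 fell (VEGFA, KDR and FLT1) by day 3, where 8.96% of 16231 tested genes rose and 11.6% fell. Between day 3 and day 5, 0 rose and 1 fell (FLT1), beside 5.93% and 6.68% of 15932 tested genes. From day 0 to day 5, 1 was higher (VEGFC) and 2 were lower (KDR and FLT1), beside 12.2% and 14.7% of 16409 tested genes. The median log2 ratio of FPKM plus 1 over the 8 genes was 0.03 by day 3, -0.49 between day 3 and day 5 and -0.39 over the whole course, against 0.03, -0.04 and -0.01 over all tested genes. All 8 were tested in each comparison. The comparisons share groups (day 0 serves in 2 of them), so their results are not independent of each other. In bulk samples a lower level can come from fewer cells that make the RNA or from less RNA per cell, and these cannot be told apart.

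The order of the levels changed accordingly. On day 0 it ran FLT1, KDR, VEGFA, VEGFB, TEK, PGF, FLT4 and VEGFC. On day 3 TEK, VEGFB and VEGFA led, followed by FLT4, KDR and PGF between 3.04 and 3.66 FPKM, with FLT1 and VEGFC below 1 FPKM. On day 5 VEGFA and TEK, both at 15.3 FPKM, led VEGFB, then KDR, FLT4, PGF, VEGFC and FLT1. Without values per library, no neighbours in these orders could be tested against each other.

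The summed FPKM of KDR, FLT1 and FLT4 was 50.1 on day 0, 7.48 on day 3 and 4.92 on day 5, whereas that of the 4 ligands was 38.1 on day 0, 28.4 on day 3 and 26.9 on day 5. The ligand sum divided by the VEGF receptor sum was therefore 0.760 on day 0, 3.80 on day 3 and 5.46 on day 5. Of the ligand sum, VEGFA and VEGFB made up 92.6% (day 0), 87.1% (day 3) and 88.4% (day 5). The VEGFC share was 0.905% on day 0 and 5.31% on day 5. On day 5 the ligands that bind FLT1 alone among these receptors, VEGFB and PGF, stood at 8.46 and 1.70 FPKM beside 0.178 FPKM of FLT1. Such sums and ratios are of RNA. Protein was not measured, so they do not give the amounts of ligand and receptor protein.

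The neuropilins rose while KDR and FLT1 fell. NRP2 was at 12.0 FPKM on day 0, 66.2 FPKM on day 3 and 50.3 FPKM on day 5. It was higher on day 3 (log2 2.46 ± 0.43) and on day 5 (log2 2.07 ± 0.41) than on day 0, with q 0.000596 for both in the authors' deposited table. NRP1 was at 0.802 FPKM on day 0, 4.11 FPKM on day 3 and 2.52 FPKM on day 5, and was also higher on day 3 (log2 2.36 ± 0.68, q 0.000596) and on day 5 (log2 1.65 ± 0.67, q 0.0097) than on day 0 in the authors' deposited table. The NRP1 call on day 5 ends under a normal p (adjusted p 0.0855). Between day 3 and day 5 neither was called. The neuropilin sum divided by the VEGF receptor sum was 0.255 on day 0, 9.39 on day 3 and 10.7 on day 5. FIGF (the remaining ligand, VEGFD) was listed at 0 on day 0, at 0.0140 FPKM on day 3 and at 0.0998 FPKM on day 5 and was not tested. Over these 3 genes the median log2 ratio of FPKM plus 1 of the 2 tested was 1.94 by day 3, -0.46 between day 3 and day 5 and 1.47 over the whole course.

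**Figure D3:**
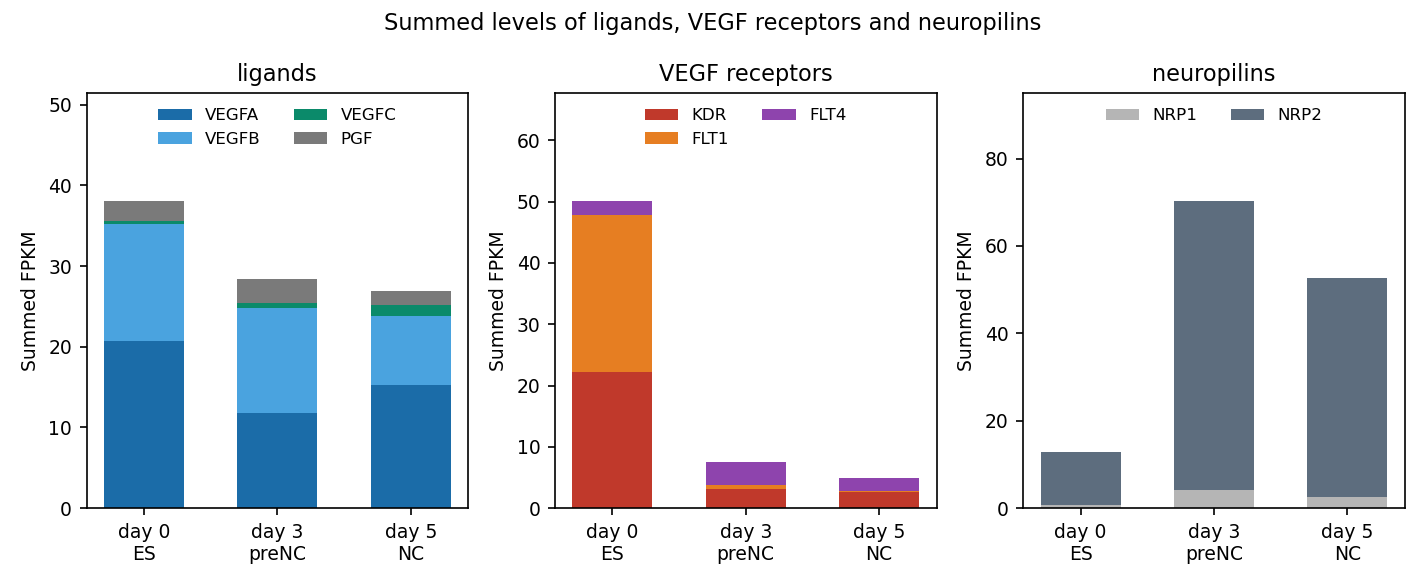
Stacked bars of FPKM by day for the 4 ligands, the 3 VEGF receptors and the 2 neuropilins, each panel on its own axis from 0; values are the authors' group values without replicate spread. The receptor sum is 50.1 on day 0 and 4.92 on day 5, and the neuropilin sum is 12.8 on day 0 and 52.8 on day 5.

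Class 3 semaphorins and their plexin receptors are the other partners of the neuropilins. Of 12 tested, 5 rose and 2 fell by day 3 (median 0.59), 5 rose and 2 fell between day 3 and day 5 (-0.10), and over the whole course 4 of 11 tested were higher and 0 lower (0.42). SEMA3C, which guides heart and neural crest cells in mouse, was at 0.314 FPKM on day 0, 2.35 FPKM on day 3 and 6.17 FPKM on day 5 and rose in each step. PLXNA2 rose to 2.25 FPKM on day 3, against 0.147 FPKM on day 0, and fell to 0.852 FPKM on day 5. SEMA3A and SEMA3F rose between day 3 and day 5, to 14.6 and 30.6 FPKM on day 5, against 3.80 and 10.4 FPKM on day 3. SEMA3E rose to 3.05 FPKM on day 3, against 0.703 FPKM on day 0, and fell to 1.07 FPKM on day 5, and PLXND1, its receptor, fell to 2.58 FPKM on day 3, against 7.05 FPKM on day 0.

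TEK was present with little of its known partners. ANGPT1, its activating ligand, was at 0.353 FPKM on day 0, 1.13 FPKM on day 3 and 0.439 FPKM on day 5. ANGPT1 rose by day 3 (log2 1.68 ± 0.58, q 0.00613) and fell between day 3 and day 5 (log2 -1.36 ± 0.68, q 0.0166) in the authors' deposited table, and the fall ends under a normal p (adjusted p 0.214). ANGPT2, which blocks or activates TEK by context, was at 0.0605 FPKM on day 0, 0.0790 FPKM on day 3 and 0.397 FPKM on day 5 and was not called. TIE1, which pairs with TEK, was at 0.501 FPKM on day 0, 0.243 FPKM on day 3 and 0.0978 FPKM on day 5, and was lower on day 5 than on day 0 (log2 -2.36 ± 0.85, q 0.0051 in the authors' deposited table). Of the 5 genes of this system, 1 rose and 1 fell among 3 tested by day 3 (median -0.27), 0 rose and 1 fell among 2 tested between day 3 and day 5 (-0.10), and over the whole course 2 of 4 tested were lower and 0 higher (-0.13). The members that fell besides ANGPT1 were TIE1 and the phosphatase PTPRB, which stayed below 0.4 FPKM.

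The receptors are named for endothelium, but the endothelial markers PECAM1 and CDH5 were near 0 in every group. PECAM1 was at 0.0674 FPKM on day 0, 0.0784 FPKM on day 3 and 0.0537 FPKM on day 5, and the cadherin CDH5 at 0.124, 0.0963 and 0.0671 FPKM on the same days. Neither was tested in any comparison. The listed PECAM1 locus (chromosome 17, 62396777 to 62407083) may not hold the whole gene, which makes its value uncertain. ETV2, a regulator of endothelial progenitors, stayed between 0.703 and 0.726 FPKM. Of the 23 endothelial markers, 2 reached 1 FPKM on day 0, 5 on day 3 and 3 on day 5, and their median level was 0.187 FPKM on day 0, 0.227 FPKM on day 3 and 0.287 FPKM on day 5. Their summed level was 47.2 FPKM on day 0, 58.0 FPKM on day 3 and 37.0 FPKM on day 5, most of it EGFL7 (39.9, 47.1 and 28.4 FPKM). EMCN was listed at 0 on day 3, and ROBO4 and SOX17 on day 5. TIE1 belongs to this list as well as to the TEK system.

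Of these markers 3 rose and 1 fell among 13 tested by day 3 (median 0.23), 2 rose and 3 fell among 12 tested between day 3 and day 5 (-0.17), and over the whole course 3 were higher and 2 lower among 15 tested (-0.02). VWF, the clotting factor carrier, was at 0.320 FPKM on day 0, 2.11 FPKM on day 3 and 0.697 FPKM on day 5, and was called in both steps. Its value is uncertain, since the pseudogene VWFP1 may share its reads. SOX18, a vessel transcription factor, had the same order, with 0.187 FPKM on day 0, 1.43 FPKM on day 3 and 0.337 FPKM on day 5, and was called in both steps as well. ENG, a TGF-beta co-receptor, fell to 0.328 FPKM on day 3, against 1.75 FPKM on day 0. GATA2 rose to 1.55 FPKM on day 5, against 0.227 FPKM on day 3. ESAM, at 0.154, 0.609 and 0.894 FPKM on days 0, 3 and 5, was called higher on both later days than on day 0. CD34 was called higher on day 5 (0.458 FPKM) than on day 3 (0.133 FPKM) and on day 0 (0.156 FPKM). Under a normal p the ESAM call by day 3 (adjusted p 0.0622) and both CD34 calls (adjusted p 0.168 and 0.238) end. Without a call, CLDN5 reached 1.43 FPKM on day 3 and LMO2 1.49 FPKM on day 5. The part of endothelial cells in the KDR, FLT1 and TEK values was not tested beyond these levels.

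**Figure D4:**
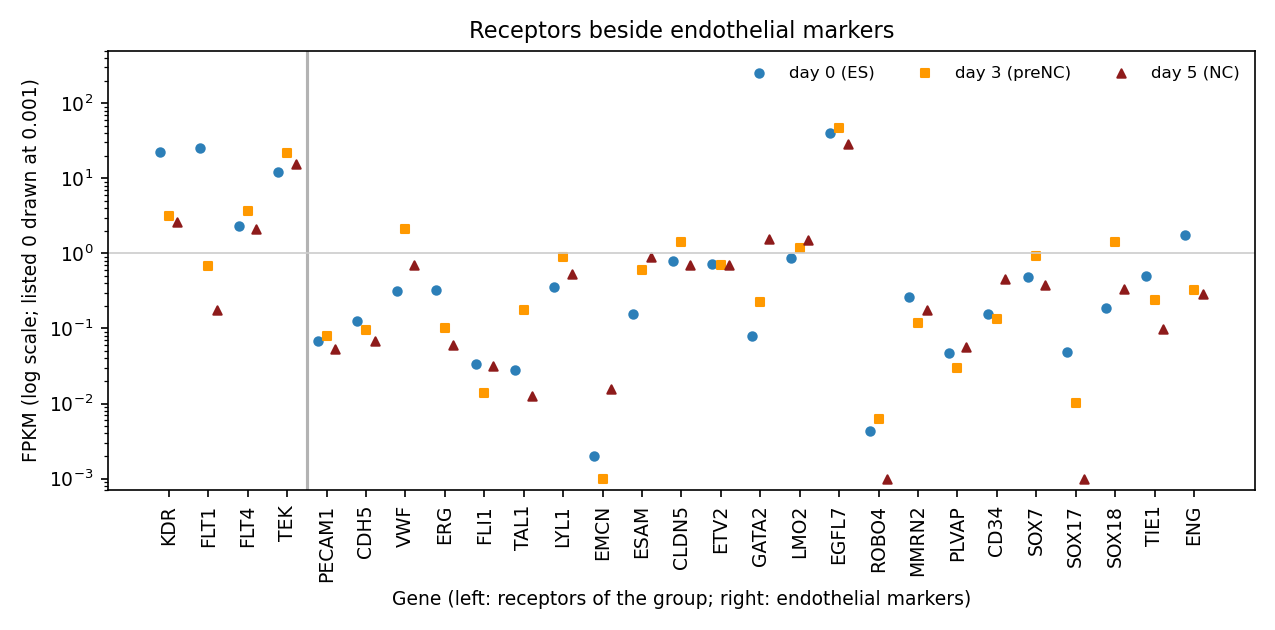
FPKM (log axis) on each day for the 4 receptors and, right of the vertical line, 23 endothelial markers; the horizontal line is 1 FPKM and values listed at 0 are drawn at 0.001. TEK lies at 12.2 to 21.5 FPKM while PECAM1 and CDH5 lie at or below 0.124 FPKM.

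Other cell types that use these receptors were checked in the same way. Of 6 blood cell markers 0 were called, with 2 tested by day 3 (median -0.35), 1 between day 3 and day 5 (-0.12) and 2 over the whole course (-0.41). ITGA2B was the 1 marker at an unadjusted p below 0.05 in the authors' deposited table (p 0.0426, q 0.15, day 5 against day 0), and 0 had a normal p below 0.05. Of 3 lymphatic markers 2 were tested in each comparison. PDPN fell to 29.6 FPKM on day 3, against 55.4 FPKM on day 0, and to 8.95 FPKM on day 5, and PROX1 rose to 1.30 FPKM on day 5, against 0.520 FPKM on day 3. Of these steps the PDPN call by day 3 and the PROX1 call end under a normal p (adjusted p 0.118 and 0.177). LYVE1 stayed at or below 0.0187 FPKM. The counts were 0 higher and 1 lower by day 3 (median -0.27), 1 and 1 between day 3 and day 5 (-0.51), and 1 and 1 over the whole course (-0.78).

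Early mesoderm markers, the source of KDR-positive vessel progenitors in embryos, counted 1 higher and 0 lower of 4 tested by day 3 (median 0.22), 0 higher and 1 lower of 4 between day 3 and day 5 (-0.36), and 0 higher and 1 lower of 3 over the whole course (-0.57). T (brachyury) rose by day 3 and fell again, at 0.134 FPKM on day 0, 0.777 FPKM on day 3 and 0.0566 FPKM on day 5. TBX6 was lower on day 5 (1.11 FPKM) than on day 0 (3.81 FPKM). Mural cell markers, many of them shared with neural crest, counted 4 higher and 2 lower of 8 by day 3 (0.25), 4 higher and 0 lower between day 3 and day 5 (0.58), and 4 higher and 1 lower over the whole course (0.90). ACTA2 reached 266 FPKM on day 5, against 4.41 FPKM on day 0. RGS5 went the other way, at 15.3 FPKM on day 0, 5.55 FPKM on day 3 and 7.90 FPKM on day 5. RGS5 was called lower on day 3 and on day 5 than on day 0, and the day 5 call ends under a normal p (adjusted p 0.206).

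Related receptor kinases that share a chromosome with KDR or FLT1 were looked at by name, and other genes nearby were not. KIT, PDGFRA and FLT3 were not called by day 3, when KDR and FLT1 fell. KIT lies 338 kb from KDR on chromosome 4 and PDGFRA 360 kb beyond it, and FLT3 lies 200 kb (199.8 kb) from FLT1 on chromosome 13. KIT, the receptor of stem cell factor, was at 8.26 FPKM on day 0, 9.93 FPKM on day 3 and 4.65 FPKM on day 5. KIT was called lower on day 5 than on day 3 (log2 -1.09 ± 0.45, q 0.002 in the authors' deposited table), a call that ends under a normal p (adjusted p 0.094). KIT was also called lower on day 5 than on day 0 (log2 -0.83 ± 0.40, q 0.0275 in the authors' deposited table). That call ends under a normal p as well (adjusted p 0.188). PDGFRA was at 0.496 FPKM on day 0, 0.329 FPKM on day 3 and 1.46 FPKM on day 5, and rose between day 3 and day 5 (log2 2.15 ± 0.60, q 0.000596 in the authors' deposited table). FLT3 was at 0.345 FPKM on day 0, 0.661 FPKM on day 3 and 0.136 FPKM on day 5, and fell in the second step (q 0.0011 in the authors' deposited table). Of the 5 related receptor kinases 4 were tested, with 1 higher and 0 lower by day 3 (median 0.27), 2 and 2 between day 3 and day 5 (0.16) and 2 and 1 over the whole course (0.24). PDGFRB rose in both steps, to 8.93 FPKM on day 5, against 1.78 FPKM on day 0, and the second step ends under a normal p (adjusted p 0.0646). CSF1R lies 0.466 kb from PDGFRB, so reads at their border may be split between them.

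The ligands of these kinases counted 0 higher and 3 lower of 8 by day 3 (median -0.44), 2 higher and 1 lower between day 3 and day 5 (-0.07), and 2 higher and 3 lower over the whole course (-0.41). PDGFB fell to 0.456 FPKM on day 3, against 5.01 FPKM on day 0, and IL34, a ligand of CSF1R, to 0.299 FPKM, against 5.53 FPKM. PDGFC, a ligand of PDGFRA, rose to 3.29 FPKM on day 5, against 0.650 FPKM on day 3.

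VEGFA is a classical target of hypoxia-inducible factors (HIF). Its log2 ratio of FPKM plus 1 by day 3 was -0.76. Among the 13 hypoxia-induced genes listed, only ADM (-5.97) and BHLHE40 (-1.51) fell further on that measure, and PGK1 came next (-0.70). ADM, adrenomedullin, fell to 1.21 FPKM on day 3, against 138 FPKM on day 0 (log2 -6.83 ± 0.43, q 0.000596 in the authors' deposited table). Of 13 hypoxia-induced genes, all tested, 0 rose and 2 fell by day 3, namely ADM and BHLHE40, with a median of -0.42. Between day 3 and day 5, 1 rose (BHLHE40) and 0 fell (median 0.10). From day 0 to day 5, 0 were higher and 3 lower (-0.56), namely ADM, the glucose transporter SLC2A1 (78.7 FPKM on day 5, against 147 FPKM on day 0) and PDK1 (15.7 FPKM on day 5, against 28.1 FPKM on day 0). The calls of SLC2A1 and PDK1 end under a normal p (adjusted p 0.0935 and 0.212).

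HIF pathway components counted 1 higher and 1 lower of 9 tested by day 3 (median 0.05), 1 and 0 of 8 between day 3 and day 5 (0.02), and 2 and 1 of 9 over the whole course (0.02). HIF1A stayed between 48.3 and 57.5 FPKM without a call. VHL, which marks HIF for destruction, was at 21.9 FPKM on day 3, against 13.3 FPKM on day 0 (q 0.0381 in the authors' deposited table). EPAS1, the other main HIF gene, fell to 0.110 FPKM on day 3, against 0.315 FPKM on day 0. EGLN3, an oxygen-sensing hydroxylase, rose to 36.2 FPKM on day 5, against 20.7 FPKM on day 3. The calls of VHL, EPAS1 and EGLN3 end under a normal p (adjusted p 0.246, 0.18 and 0.178).

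**Figure D5:**
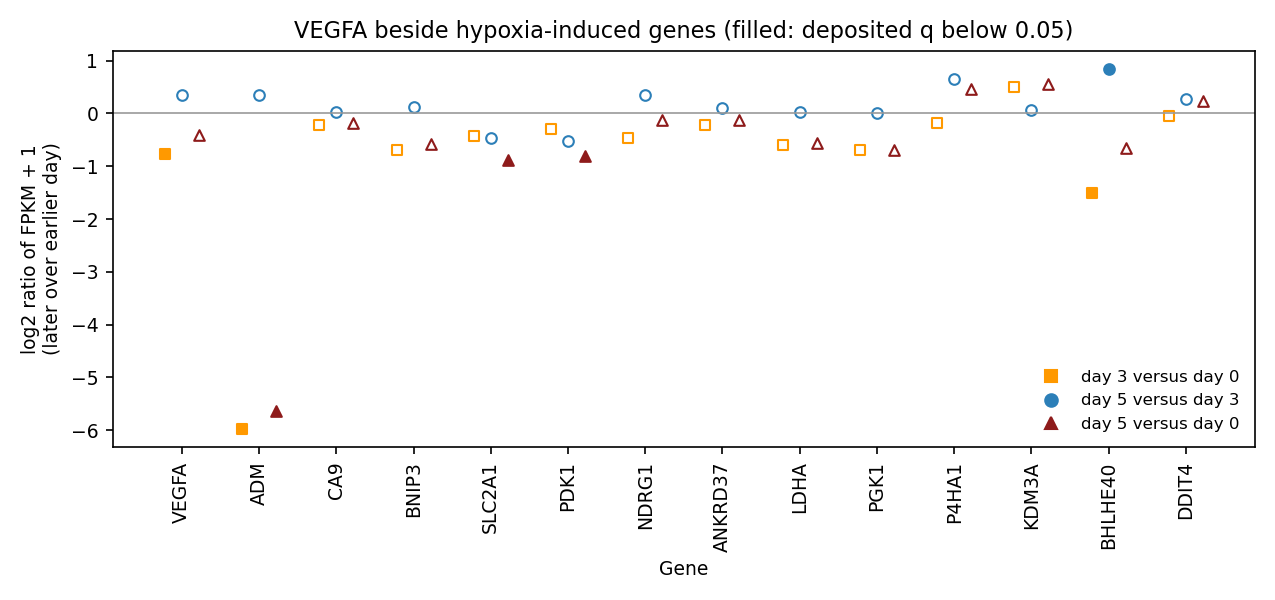
Log2 ratio of FPKM plus 1, later over earlier day, for VEGFA and 13 hypoxia-induced genes in the 3 comparisons; filled points have a deposited q below 0.05 and no error is drawn. By day 3 VEGFA lies at -0.76, ADM at -5.97, BHLHE40 at -1.51 and PGK1 at -0.70.

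Genes that process or bind the ligands included several that fell by day 3 and rose again. Of 6, all tested, 0 rose and 3 fell by day 3 (median -0.53), 3 rose and 1 fell between day 3 and day 5 (0.62), and 1 was higher and 2 lower over the whole course (-0.27). FURIN, a protease that cleaves pro-VEGFC, was at 9.60 FPKM on day 0, 2.25 FPKM on day 3 and 4.90 FPKM on day 5 and was called in each comparison. PCSK5, a related protease, was at 4.05 FPKM on day 0, 1.06 FPKM on day 3 and 3.46 FPKM on day 5. ADAMTS1, which binds VEGFA, was at 5.24 FPKM on day 0, 1.90 FPKM on day 3 and 3.84 FPKM on day 5. ADAMTS3, which activates VEGFC, was higher on day 5 (2.24 FPKM) than on day 0 (0.848 FPKM), whereas its cofactor CCBE1 was lower on day 5 (0.531 FPKM) than on day 0 (1.13 FPKM). Under a normal p the day 5 calls against day 0 of FURIN, ADAMTS3 and CCBE1 end (adjusted p 0.0643, 0.0691 and 0.301), as does the ADAMTS1 call between day 3 and day 5 (adjusted p 0.138).

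Signal carriers downstream of the receptors are mostly shared by many receptors. Of 23, all tested, 3 rose and 1 fell by day 3 (median 0.10), 1 rose and 1 fell between day 3 and day 5 (0.07), and 1 was higher and 2 lower over the whole course (0.23). The kinase FYN rose to 47.5 FPKM on day 3, against 22.5 FPKM on day 0, and the adaptor PXN fell to 17.3 FPKM, against 37.4 FPKM. Of 10 genes that VEGF induces in endothelial cells, 6 were tested, with 1 higher and 0 lower by day 3 (0.36), 2 and 1 between day 3 and day 5 (0.21) and 3 and 1 over the whole course (0.40). APLN, the ligand apelin, fell to 0.281 FPKM on day 5, against 2.73 FPKM on day 3, while its receptor APLNR rose to 1.03 FPKM, against 0.392 FPKM. That APLNR call ends under a normal p (adjusted p 0.151). Of 8 genes listed as angiogenesis inhibitors or relatives of one, all tested, 2 rose and 4 fell by day 3 (-0.48). In the second step 1 rose and 3 fell (0.02), and 2 were higher and 3 lower over the whole course (-0.28). VASH2, listed as a relative of the inhibitor VASH1 and not an inhibitor itself, was at 39.1 FPKM on day 0, 10.9 FPKM on day 3 and 3.62 FPKM on day 5. VASH1 rose to 7.93 FPKM on day 3, against 3.18 FPKM on day 0, and was at 8.69 FPKM on day 5. COL18A1, the source of endostatin, was at 115 FPKM on day 0, 53.4 FPKM on day 3 and 50.7 FPKM on day 5. THBS1 was at 11.3 FPKM on day 0, 5.23 FPKM on day 3 and 11.9 FPKM on day 5. THBS2 fell to 1.06 FPKM on day 5, against 5.88 FPKM on day 3.

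For the 5 genes with a call, the genes of most similar course were taken among 14085 others, by the distance between centred log2 values of FPKM plus 1 over the 3 groups, where smaller is more alike. Nearest to FLT1 were IDO1 (distance 0.0562), HTR7 (0.0695) and MAP7 (0.167). Nearest to KDR were LGALS3 (0.0908), PDE6G (0.0989) and DCLK1 (0.0998). Nearest to VEGFA were NDUFB4 (0.0191), GPR3 (0.0209) and UBE2S (0.0261), and nearest to TEK were TADA2A (0.0240), CELP (0.0250) and GYPC (0.0252). VEGFC was nearest to LOC100272216 (0.00663), LOC100270804 (0.0103) and SEC14L1 (0.0107). With 3 values per gene, such likeness is a description. Because 1 FPKM is added to each value, genes near on this measure can still differ in fold. PDE6G, for example, was at 5.53 FPKM on day 0, 0.283 FPKM on day 3 and 0.0727 FPKM on day 5.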

How the data were processed

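RNA-seq of 6 libraries was used, in 3 groups of 2. The labels' protocols give poly-A selected mRNA libraries. The submitters' processing notes name TopHat2 2.0.10, Cuffdiff 2.1.1 and hg19. Of annotation, strand and read length, nothing is given in the sources used here. Per the file headers, the single deposited table gives the authors' FPKM of each group, the test statistic of Cuffdiff (a score), its p-value and its q-value. The deposited q is the Benjamini-Hochberg adjustment over all 48572 tested rows of the 3 comparisons (to within 5.25e-07), and the smallest p is 5e-05. The labels do not say whether replicates were separate cultures, so p-values may measure technical spread. Depth is unknown: of the 1000 lowest FPKM values above 0, 982, 980 and 992 were distinct on days 0, 3 and 5, so no step of 1 fragment could be read.

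Log2 ratios, the standard error (log2 ratio divided by the test statistic) and counts over 18 lists were computed with Python 3.11.15, numpy 2.4.6, pandas 2.3.3 and scipy 1.17.1. The code was tested on simulated data. The pseudocount is 1 FPKM where stated. The normal p is the two-sided p of the test statistic, adjusted over all tested rows. Starts in the table were taken as counted from 0. Members and lists were chosen with earlier results of these data known. From each list, up to 4 called genes with at least 1 FPKM per comparison were candidates for naming, by size of change. Only some of these candidates are named, and no rule fixed which. Neuropilins, angiopoietins, some endothelial markers and the related kinases KIT and PDGFRA were named as well. T, EPAS1, FLT3, ESAM, CD34 and the uncalled genes besides these were named after their values were seen, to make counts clear.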

Additional observations from a re-analysis of the deposited data

How the results depend on the processing

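With a q threshold of 0.01, 2 of the 8 genes were called by day 3 (KDR and FLT1) in place of 4. The normal p also gave 2, the same genes. Between day 3 and day 5, where 1 was called, a q threshold of 0.1 gave 3 (FLT1, VEGFC and FLT4), and over the whole course it added VEGFB. For day 5 against day 3 the normal p gave 0 calls, with 3 genes at an unadjusted p below 0.05. Keeping genes with at least 1 FPKM in either group gave 0 calls as well, because FLT1 is then not among the 7 tested, 2 of which have an unadjusted deposited p below 0.05. Over the listed pathway and marker genes the normal p gave 31 calls between day 3 and day 5 in place of 50. The other 10 counts of members and 14 counts of listed genes stayed within 1.5 times. Of 96 recomputed log2 ratios (2 pseudocounts, 2 scalings) 1 changed sign, FLT4 on day 5 against day 0, at 0.0166 after rescaling without small RNA genes, which adds 0.17 to every log2 ratio of that comparison. Sizes moved more than signs: with a pseudocount of 1 FPKM in place of none, day 5 against day 0 gave -4.50 in place of -7.17 for FLT1 and 0.85 in place of 2.05 for VEGFC, and with 0.1 FPKM it gave -6.53 and 1.78. KDR and FLT1 against day 0 kept their calls in each setting tried. Shares weighted by transcript length moved by at most 5 percentage points. No paired analysis was possible because the table holds 1 value per gene and group, so leaving out replicates was not run either. Depth per library is unknown, which limits what can be said of values below 1 FPKM.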
